A study of Mus musculus with 6 samples.

Results

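Transcripts of 41 genes of the cell cycle and of DNA replication were followed in ribosome-bound RNA of the mouse choroid plexus (ChP) at E16.5 and in the adult. They were the rows carrying 41 listed gene symbols, among 24354 gene names in all. The set holds 10 genes of DNA replication (Mcm2 to Mcm7, Pcna, Rrm1, Rrm2 and Tyms), 16 of mitosis (Mki67, Top2a, Ccna2, Ccnb1, Ccnb2, Cdk1, Aurka, Aurkb, Birc5, Cenpf, Tpx2, Plk1, Bub1, Bub1b, Mad2l1 and Cdc20), 9 of the G1 phase (Ccnd1, Ccnd2, Ccnd3, Ccne1, Ccne2, Cdk2, Cdk4, Cdk6 and E2f1) and 6 that hold cells out of the cycle (Cdkn1a, Cdkn1b, Cdkn2c, Rb1, Rbl1 and Rbl2). The samples were lateral ventricle ChP of FoxJ1:cre mice crossed with bacTRAP (EGFP:L10a) mice, 3 at 60 days of age and 3 at E16.5, both ages carrying the same alleles and collected at 9 in the morning. In these animals the Foxj1 promoter, which is active in cells with motile cilia, drives Cre, and ribosomes of cells that have made Cre carry an EGFP-tagged L10a subunit by which translating ribosome affinity purification (TRAP) pulls down their mRNA. By the methods each sample was a pool of 3 mice aged 8 weeks or of 3 litters, while 3 mice per age is what the series record states, and p-values measure the spread between these 3 samples only. The comparison asked which of these transcripts were found on ribosomes of the embryonic and of the mature ChP.

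A cell enters the cycle when D-type cyclins, bound to CDK4 or CDK6, phosphorylate the retinoblastoma family (RB1, RBL1 and RBL2) and free E2F factors. These switch on the genes of DNA synthesis, among them the MCM helicase, the clamp PCNA and the enzymes that make deoxynucleotides. Mitotic genes follow later in the cycle under the MuvB, B-MYB and FOXM1 complexes, while p21, p27 and p18 (Cdkn1a, Cdkn1b and Cdkn2c) hold CDKs in check. ChP epithelial cells arise from dividing progenitors at the rim of the plexus and are known to be largely postmitotic once differentiated.

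The values are FPKM, fragments divided by transcript length and by library size, which can be compared between genes of different length. The libraries differed in depth. From the spacing of low values, 1 read on a transcript of 1 kilobase was worth about 0.113 to 0.325 FPKM in the adult and 0.0638 to 0.0806 FPKM in the E16.5 libraries, so every E16.5 library was deeper than every adult one, by 4.03 to 5.09 times the shallowest (adult replicate 3). Between 63.1 and 82.1% of the low values used lay within 0.1 read of a whole number. Of the 11601 genes tested, 10.8 to 36.9% were listed at 0 in an adult library and 3.97 to 4.31% in an E16.5 library. Zeros were also found where a level would be looked for. Among genes at 10 FPKM or more in both other libraries of an age, 2.2%, 0.261% and 7.89% were listed at 0 in adult replicates 1, 2 and 3, and at most 0.292% in an E16.5 library. H2afz, a histone variant used by most cells and named after its values were seen, was listed at 0 in all adult libraries and at 7.09, 3.50 and 3.52 FPKM at E16.5. A 0 is therefore reported below as a listing and not as absence, values under 0.001 FPKM are counted as 0, and genes with such listings are given library by library.

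The tissue label was checked against 10 ChP epithelial markers, whose summed level was 39190 to 54360 FPKM in the adult and 2859 to 3286 FPKM at E16.5. Folr1, Clic6 and Otx2 were above 100 FPKM in every library, but Ttr, the defining transcript of ChP epithelium, was listed at 0 in all E16.5 libraries. The markers went both ways, with 4 called higher and 1 lower in the adult. Most of the adult sum was Ttr and Enpp2 (14890 to 18730 FPKM in the adult and 242 to 303 FPKM at E16.5), while Folr1, Otx2 and Aqp1 were lower in every adult library than in any E16.5 library. Summed markers of neural progenitors, neurons, mesenchyme and red blood cells were higher at E16.5 without overlap, and those of endothelium and macrophages overlapped. Those of neural progenitors summed to 0.145 to 11.4 FPKM in the adult and 28.7 to 52.5 at E16.5, with 6 of 8 (among them Pax6, Nes and Eomes) at 0 in every adult library and Eomes at 0 at E16.5 as well. Much of the E16.5 sum was Sox2 (26.3, 25.3 and 26.4 FPKM). Pax6 was at 11.5, 0.207 and 3.98 FPKM there and Nes at 5.31, 0.139 and 0.401 FPKM. Those of neurons summed to 0 to 4.60 and 18.9 to 121 FPKM, with 5 of 8 at 0 in every adult library, Dcx and Stmn2 included. At E16.5 Tubb3 (36.2, 0.623 and 0.134 FPKM), Dcx (8.32, 0.598 and 0.00772) and Stmn2 (25.3, 0 and 0) were read mainly in replicate 1. Map2, at 39.0, 14.9 and 18.7 FPKM, made up most of the sum in replicates 2 and 3. Those of mesenchyme summed to 21.6 to 39.1 and 83.2 to 108 FPKM, with Lum at 0 in the adult. Those of red blood cells summed to 0 to 6.49 and 54.1 to 324 FPKM, with the 4 globins measured at 0 in the adult. Endothelial markers summed to 0.489 to 19.0 and 12.3 to 40.8 FPKM, with Plvap and Tek at 0 in the adult and Pecam1 and Cldn5 at 0 at E16.5. Macrophage markers summed to 0.0695 to 4.63 and 0.548 to 8.41 FPKM, with 6 of 8 at 0 in the adult. The part of these cells in the results on the 41 genes was not tested. In bulk samples, fewer cells of a type and less RNA per cell cannot be told apart.

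Most of the 41 genes were read at E16.5 and fewer were in the adult. At least 0.001 FPKM was listed for 34, 32 and 35 of them in the E16.5 libraries and for 17, 21 and 12 in adult replicates 1, 2 and 3. Of 38 genes of the set above 0 in some E16.5 library, 14 (36.8%) were listed at 0 in all adult libraries, as were 19.9% of the 14365 such genes in the table. Among genes with an E16.5 mean from 1 to 20 FPKM, the share was 8 of 24 in the set and 14.6% of 7736 genes in the table. Ccnb1, Ccne2 and Cdkn2c, which encode cyclin B1, cyclin E2 and p18, were at 0 in all 6 libraries.

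**Figure D1:**
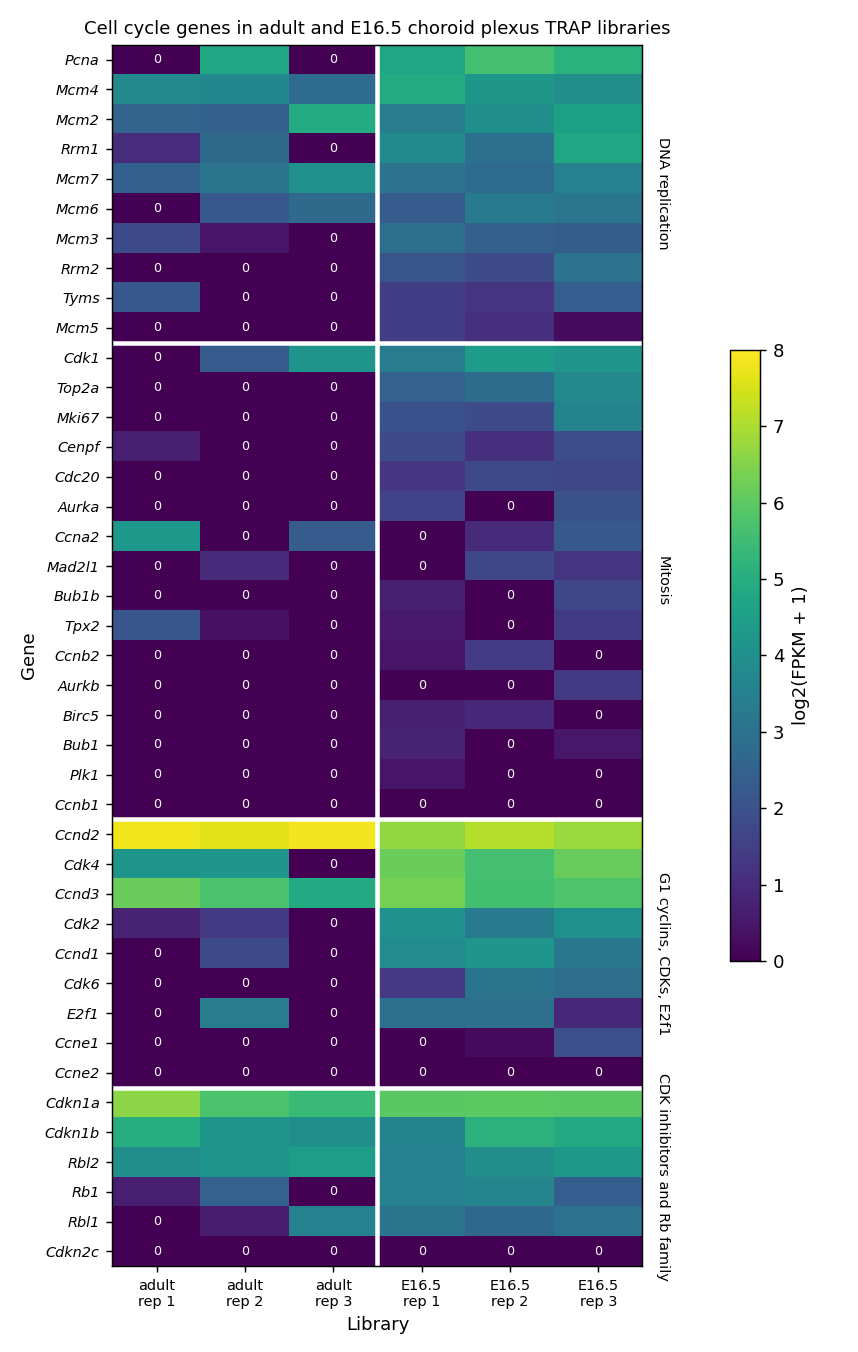
Level of each of the 41 genes in each library as log2(FPKM + 1), with a 0 written where the gene was listed at 0, rows grouped by role and columns by age. The mitosis block is above 0 for 3, 3 and 2 of 16 genes in the adult columns and for 12, 9 and 12 in the E16.5 columns, whereas Ccnd2, Ccnd3, Cdkn1a, Cdkn1b and Rbl2 are above 0 in all 6.

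The change with age was tested with limma on log2(FPKM + 1), adult minus E16.5, for genes whose mean over the 6 libraries exceeded 1 FPKM. Of the 41 genes 27 passed this filter, 9 of them through their E16.5 values alone, and 14 were not tested. At a Benjamini-Hochberg adjusted p under 0.05, 4 were lower in the adult (Top2a, Cdk2, Ccnd1 and Rrm2), where 8.83% of all 11601 genes tested were, and 0 were higher, where 2.12% were. All 4 are among the 9 that passed the filter through E16.5 alone, so the filter favoured a call in this direction. With no filter on low values Ccnd1 was not called (limma adjusted p = 0.0629) and Cdc20 was (limma adjusted p = 0.0286). At an unadjusted p under 0.05, 13 were lower and 1 (Ccnd2) was higher, with 25.9% and 5.34% of all genes tested. Every adult value lay below every E16.5 value in 12 of the 27, as it did in 31% of all genes tested, and above in 1, where 7.39% did. The median change over all 41 genes was -0.93, and over the 14894 genes of the table above 0 in some library it was -0.60. Without adult replicate 1, or without any 1 of the E16.5 replicates, 0 of the 41 genes were called lower, with 4.63% of all genes called lower without adult replicate 1 and 0.22%, 0.14% and 0.565% without E16.5 replicates 1, 2 and 3. Without adult replicate 2 the number was 6 (14.7% of all genes) and without adult replicate 3 it was 5 (11.6%). With any 1 library left out the changes stayed between -3.30 and -2.67 for Top2a, -3.41 and -2.73 for Cdk2, -3.75 and -2.85 for Ccnd1 and -2.55 and -1.96 for Rrm2. Top2a and Rrm2 were at 0 in every adult library, so leaving out an adult library could not move their changes.

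**Figure D2:**
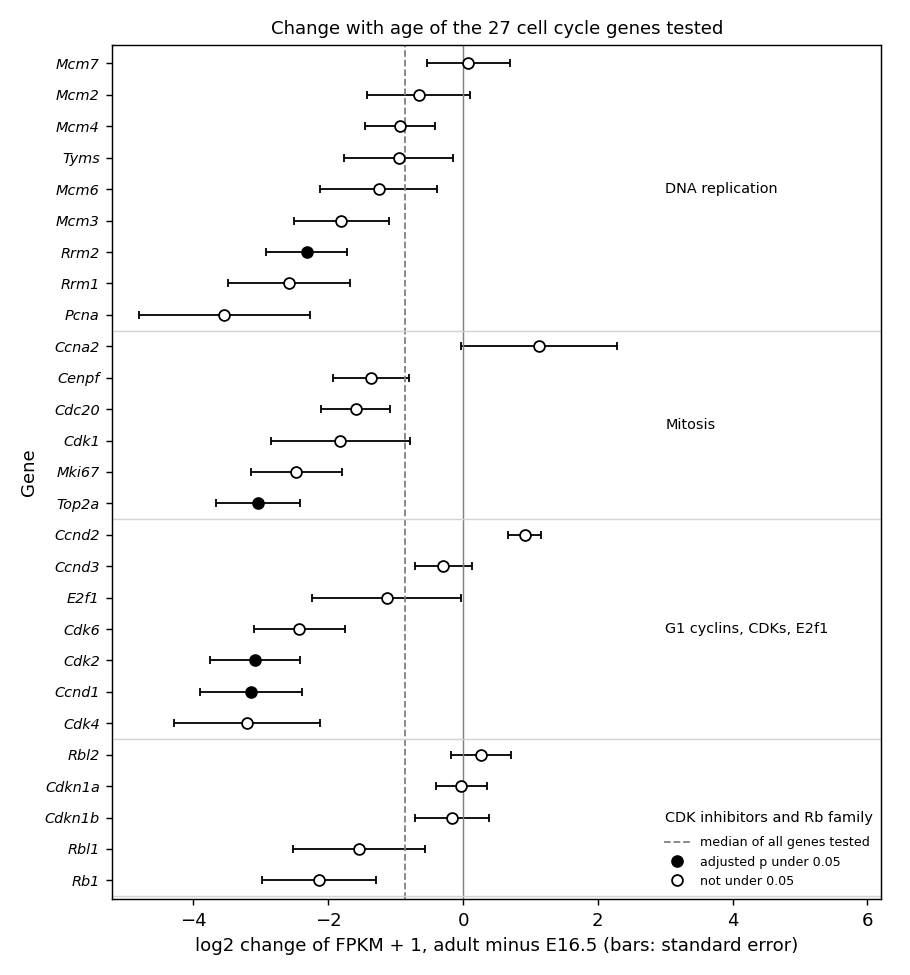
Change of each of the 27 genes tested, in log2(FPKM + 1), adult minus E16.5, with its standard error from limma (3 libraries per age), and the median of all genes tested as a broken line at -0.86. Filled circles mark Rrm2, Top2a, Cdk2 and Ccnd1, the 4 with an adjusted p under 0.05. Ccnd2 lies to the right of 0 with a short bar, and Cdkn1a, Cdkn1b, Rbl2 and Mcm7 lie within 0.27 of 0.

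Because the groups differ in when they are switched on, the promoters of the genes were read for the letters that their known regulators recognise. RefSeq windows (GRCm38.p6) running from 250 bases before to 50 bases after a start were found for 33 of the 41 genes, and those of Mcm4, Ccna2, Ccnd1, Ccnd2, Ccne2, Aurkb, Tpx2 and Rb1 were not used here. Both strands were searched for the E2F letters TTTCCCGC, TTTCGCGC, TTTGCCGC and TTTGGCGC, for the letters TTTGAA of the cell cycle homology region (CHR) that MuvB binds, with their variant form TTCGAA, and for the NF-Y letters CCAAT. Some of these overlap one another. Some genes had more than 1 window and were counted if any of them held the letters. E2F letters stood in 4 of 9 replication genes (Mcm3, Mcm5, Mcm6 and Mcm7), in 1 of 13 mitosis genes (Cdk1), 1 of 6 G1 genes (Cdk2) and 1 of 5 inhibitor and Rb family genes (Rbl1), and in 704 of 27025 genes with a window (2.6%). CHR letters stood in 10 of 13 mitosis genes, 2 of 9 replication genes, 0 of 6 G1 genes and 1 of 5 of the last group (Rbl2), and in 21.7% of all genes. NF-Y letters stood in 11 of 13 mitosis genes, 8 of 9 replication genes, 2 of 6 G1 genes and 2 of 5 of the last group, and in 41.1% of all genes. A match is a string of letters and not a measured binding site.

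**Figure D3:**
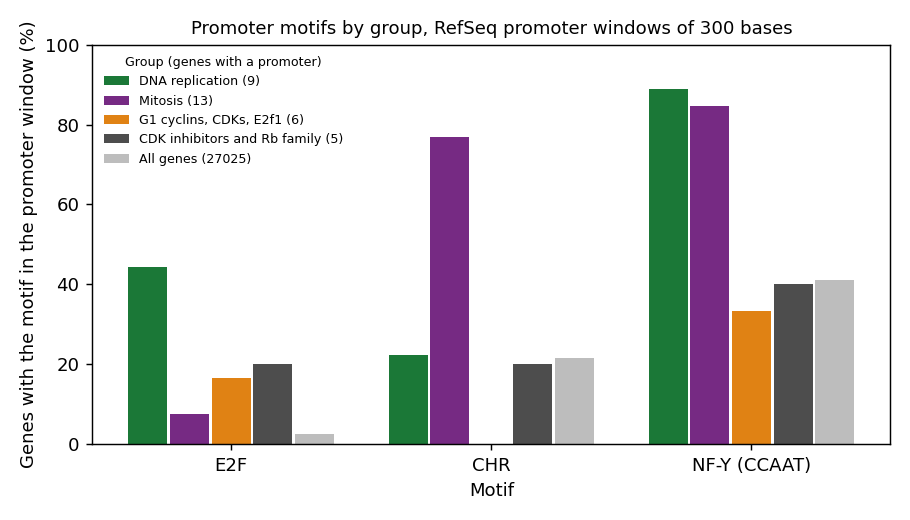
Share of genes, in percent, whose RefSeq promoter window of 300 bases holds the E2F, CHR or NF-Y letters on either strand, for each group of genes and for all 27025 genes with a window (grey). The replication bar is highest for E2F (44.4%) and the mitosis bar for CHR (76.9%).

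Windows of 6 genes are shown 5′ to 3′ on the strand of the gene, to let the 3 kinds of promoter be compared. They are the 2 replication genes with E2F letters and the 2 mitosis genes with CHR letters that were most abundant at E16.5, and the 2 CDK inhibitors among the 41 genes that were most abundant in the adult. Mcm7 and Cdkn1a each had another window, not shown. That of Mcm7 (chr5:138171217-138171516) held 0 E2F, 0 CHR and 1 NF-Y stretch, so the Mcm7 window shown was picked for its E2F letters. Capitals mark E2F, CHR and NF-Y letters on either strand, so that NF-Y letters also appear as ATTGG. The windows are chr5:138171834-138172133 for Mcm7, chr1:128359656-128359955 for Mcm6, chr10:69352863-69353162 for Cdk1 and chr11:99024140-99024439 for Top2a, all on the minus strand, and chr17:29090729-29091028 for Cdkn1a and chr6:134920151-134920450 for Cdkn1b, both on the plus strand.
Mcm7: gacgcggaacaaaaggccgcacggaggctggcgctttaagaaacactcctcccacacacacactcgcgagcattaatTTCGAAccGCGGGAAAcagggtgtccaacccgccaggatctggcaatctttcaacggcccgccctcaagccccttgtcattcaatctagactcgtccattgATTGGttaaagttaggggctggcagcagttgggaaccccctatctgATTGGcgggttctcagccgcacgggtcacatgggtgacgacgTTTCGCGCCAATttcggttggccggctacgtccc
Mcm6: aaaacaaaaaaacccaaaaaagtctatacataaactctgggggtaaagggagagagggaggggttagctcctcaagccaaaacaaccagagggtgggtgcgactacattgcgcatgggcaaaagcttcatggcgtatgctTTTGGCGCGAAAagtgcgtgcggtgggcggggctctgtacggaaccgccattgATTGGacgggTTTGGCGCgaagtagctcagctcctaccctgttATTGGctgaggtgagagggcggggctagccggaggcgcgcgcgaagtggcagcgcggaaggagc
Cdk1: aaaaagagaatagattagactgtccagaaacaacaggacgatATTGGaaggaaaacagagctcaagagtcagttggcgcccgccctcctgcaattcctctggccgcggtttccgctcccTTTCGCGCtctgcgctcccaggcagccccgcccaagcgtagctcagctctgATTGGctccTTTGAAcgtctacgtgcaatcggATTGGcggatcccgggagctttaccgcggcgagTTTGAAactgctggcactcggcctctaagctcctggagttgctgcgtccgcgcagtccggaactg
Top2a: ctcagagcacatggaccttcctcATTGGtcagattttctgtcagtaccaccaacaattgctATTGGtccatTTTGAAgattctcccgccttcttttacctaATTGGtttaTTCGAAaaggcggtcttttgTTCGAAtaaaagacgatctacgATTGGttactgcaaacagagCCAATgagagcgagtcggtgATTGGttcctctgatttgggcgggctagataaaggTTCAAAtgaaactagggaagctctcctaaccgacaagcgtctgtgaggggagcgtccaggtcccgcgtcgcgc
Cdkn1a: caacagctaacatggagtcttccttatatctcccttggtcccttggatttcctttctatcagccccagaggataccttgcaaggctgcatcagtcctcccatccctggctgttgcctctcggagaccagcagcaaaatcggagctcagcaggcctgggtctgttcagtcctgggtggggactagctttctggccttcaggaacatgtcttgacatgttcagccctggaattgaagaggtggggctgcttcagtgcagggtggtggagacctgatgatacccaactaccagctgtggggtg
Cdkn1b: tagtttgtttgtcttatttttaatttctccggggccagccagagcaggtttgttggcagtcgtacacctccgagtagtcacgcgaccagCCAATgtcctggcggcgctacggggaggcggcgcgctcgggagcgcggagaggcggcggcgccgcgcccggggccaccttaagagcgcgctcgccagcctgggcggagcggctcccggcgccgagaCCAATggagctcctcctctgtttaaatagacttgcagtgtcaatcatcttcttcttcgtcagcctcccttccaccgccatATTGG
The Top2a window held 4 CHR and 6 NF-Y stretches and no E2F letters. In Mcm6 the letters TTTGGCGC and GCGCGAAA overlap, and in Mcm7 an E2F and an NF-Y stretch share a base at the 3′ side of the start. Cdk1 held all 3 kinds. Cdkn1a, which encodes p21, held none of them, and Cdkn1b, which encodes p27, held NF-Y letters only.

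The replication genes were all read at E16.5. Each of the 10 was above 0 in every E16.5 library, against 6, 7 and 4 of 10 in adult replicates 1, 2 and 3, and their summed level was 101, 111 and 131 FPKM at E16.5 and 29.2, 61.1 and 56.2 FPKM in the adult. The sums did not overlap between ages. Of the 9 tested, 1 was lower in the adult and 4 were lower at an unadjusted p under 0.05, against 8.83% and 25.9% of all genes tested.

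Rrm2, the regulated small subunit of ribonucleotide reductase (chr12:24708241-24714146, plus strand, GRCm38), was listed at 0 in all adult libraries and at 3.18, 2.62 and 7.23 FPKM at E16.5. It fell by 2.32 on the log2 scale (SE 0.60, limma adjusted p = 0.0477), the smallest margin of the 4 calls, and was called under 5 of 14 alternative settings. Its E16.5 mean would correspond to about 33.7, 76.3 and 26.7 reads at the depths of the adult libraries. Rrm1, which encodes the large subunit, was at 1.01, 5.73 and 0 FPKM in the adult and 12.8, 6.59 and 26.5 FPKM at E16.5. All its adult values lay below those at E16.5, by a log2 change of -2.58 (SE 0.90, limma adjusted p = 0.103). Tyms, which encodes thymidylate synthase, was at 3.62, 0 and 0 FPKM in the adult and 1.79, 1.28 and 4.30 FPKM at E16.5, so that the adult library with reads fell inside the E16.5 range.

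The 6 subunits of the MCM helicase, which unwinds DNA at the origin, differed in whether their ranges overlapped between ages. Whether their changes differed from each other was not tested. Mcm3 (2.47, 0.378 and 0 FPKM in the adult, 6.38, 4.43 and 4.09 at E16.5) and Mcm4 (12.6, 12.3 and 5.98 FPKM in the adult, 29.5, 17.8 and 14.4 at E16.5) had separate ranges at the 2 ages. Neither passed the test, with changes of -1.80 (limma adjusted p = 0.131) and -0.93 (limma adjusted p = 0.253). Mcm5 had separate ranges too, with 0 in all adult libraries and 1.78, 1.16 and 0.169 FPKM at E16.5, but was below the filter. The ranges of the other subunits overlapped between ages. Mcm2 was at 4.83, 4.62 and 29.4 FPKM in the adult and 9.53, 14.9 and 22.5 FPKM at E16.5, and the highest of the 6 values was adult replicate 3, the shallowest library. Mcm6 was at 0, 3.63 and 5.81 FPKM in the adult and 4.04, 8.54 and 7.84 FPKM at E16.5. Mcm7 was at 4.65, 7.40 and 15.0 FPKM in the adult and 7.30, 5.88 and 10.3 FPKM at E16.5. Its change was 0.08 (95% interval -1.35 to 1.51, limma adjusted p = 0.940), and 18.1% of its 50-base words occur in other genes, mainly Gm5487, so that its count may be shared. The Mcm7 and Mcm6 windows shown above were thus not those of genes called between ages.

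Pcna, the sliding clamp of the DNA polymerases, was at 0, 27 and 0 FPKM in the adult and 25.0, 48.0 and 33.7 FPKM at E16.5. A single adult library carried all its adult reads and lay inside the E16.5 range, and the log2 change was -3.54 (SE 1.27, limma adjusted p = 0.110). Without adult replicate 2 it was -5.14 (limma adjusted p = 0.00635). Without any other 1 library the limma adjusted p was 0.173 to 0.296. The library left out was picked by its Pcna value, so the lower p is not a separate test. At the E16.5 mean, about 182 and 144 reads would correspond to the depths of adult replicates 1 and 3, where Pcna was listed at 0. A pseudogene, Pcna-ps2, shares 19.1% of its 50-base words.

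The mitotic genes were the group most often at 0 in the adult. Of 16, 3, 3 and 2 were above 0 in the adult libraries and 12, 9 and 12 at E16.5. At 0 in all adult libraries were 11, among them Ccnb1, which was at 0 at E16.5 as well. Of the 15 above 0 in some E16.5 library, 10 (66.7%) were at 0 in all adult libraries, against 19.9% of such genes in the table. With an E16.5 mean from 1 to 20 FPKM the share was 4 of 8, against 14.6% in the table. Their summed level was 22.1, 5.32 and 20.5 FPKM in the adult and 26.4, 37.8 and 59.2 FPKM at E16.5. Only 6 passed the filter, 4 of them through E16.5 alone, and Top2a was the 1 called, where 8.83% of all genes tested were called lower. In the E16.5 libraries, 8 of the 15 mitotic genes read there were highest in replicate 3, 5 in replicate 2 and 2 in replicate 1, so the level of this group also varied among the E16.5 pools.

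Top2a, the topoisomerase that untangles sister chromatids (chr11:98992943-99024189, minus strand), was listed at 0 in every adult library and at 4.72, 6.08 and 12.7 FPKM at E16.5, from about 294, 478 and 927 reads. It fell by 3.04 on the log2 scale (SE 0.63, limma adjusted p = 0.0280). The call held under 8 of 14 alternatives, and the E16.5 mean would correspond to about 153, 346 and 121 reads at the adult depths. Mki67, the proliferation marker Ki-67, was at 0 in every adult library too, and at 3.02, 2.58 and 10.8 FPKM at E16.5. Its separate ranges gave a change of -2.47 with a limma adjusted p of 0.0557. Cdc20, the activator of the anaphase-promoting complex, was at 0 in the adult and at 1.41, 2.4 and 2.36 FPKM at E16.5 (limma adjusted p = 0.0838). Cenpf, a kinetochore protein of G2 and mitosis, was at 0.608, 0 and 0 FPKM in the adult and 2.52, 1.11 and 2.71 FPKM at E16.5 (limma adjusted p = 0.149). In all of these genes the adult values lay below every E16.5 value.

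Cdk1 and Ccna2 did not follow them. Cdk1, the kinase that drives entry into mitosis, was at 0, 4.07 and 16.5 FPKM in the adult and 9.44, 19.9 and 16.9 FPKM at E16.5. Adult replicate 3, with about 212 reads, reached the E16.5 range, and the change of -1.82 did not pass the test (SE 1.03, limma adjusted p = 0.261). Ccna2, which encodes cyclin A2, was at 18.1, 0 and 4.0 FPKM in the adult and 0, 0.962 and 3.66 FPKM at E16.5. Its highest value was in adult replicate 1, and the change was 1.13 with a standard error of 1.16 (limma adjusted p = 0.521). Of the exonic bases of Ccna2, 12.5% overlap Exosc9 on the other strand, and whether the counting used strand is not given in the sources used here. The Cdk1 and Top2a windows both held CHR and NF-Y letters, while their adult listings differed.

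The remaining mitotic genes were low at both ages and not tested. At E16.5 Aurka, the kinase of the spindle poles, was at 2.07, 0 and 2.96 FPKM, and Aurkb and Birc5, which encode parts of the chromosomal passenger complex, were at 0, 0 and 1.58 and at 0.622, 0.904 and 0 FPKM. The checkpoint kinases Bub1 and Bub1b were at 0.694, 0 and 0.426 and at 0.643, 0 and 2.23 FPKM, Ccnb2 (cyclin B2) was at 0.357, 1.65 and 0 FPKM, and Plk1, the polo-like kinase, was at 0.358 FPKM in replicate 1 alone. All of these were at 0 in the adult, and none was above 0 in every E16.5 library, so no ranges were separate. Mad2l1, of the spindle checkpoint, was at 0.963 FPKM in adult replicate 2 alone and at 0, 2.24 and 1.29 FPKM at E16.5. Tpx2, a spindle assembly factor, was at 3.42, 0.285 and 0 FPKM in the adult and 0.503, 0 and 1.54 FPKM at E16.5. For these genes the exact permutation test, whose smallest two-sided p with 3 against 3 is 0.1, gave 0.4 or more. The E16.5 means of Plk1, Ccnb2, Aurkb and Bub1 would correspond to between 0.736 and 10.6 reads in an adult library. For Plk1 they were 0.929, 2.1 and 0.736 reads in adult replicates 1, 2 and 3, so such a level could go undetected there. For Bub1 they were 4.68, 10.6 and 3.7 reads, and whether such a level would go undetected was not tested.

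**Figure D4:**
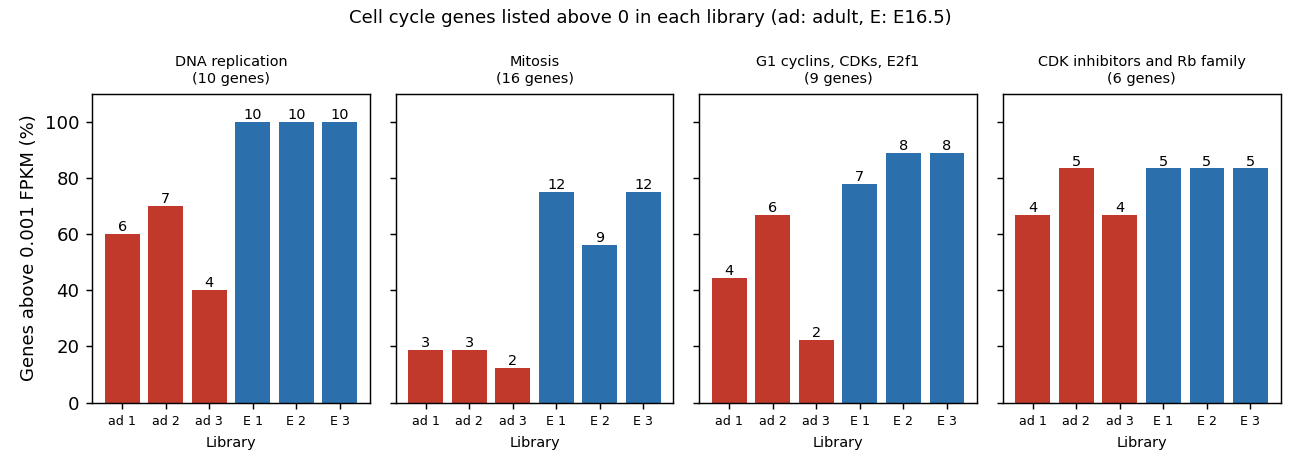
Share of the genes of each group listed above 0.001 FPKM in each library, in percent, with the number of genes above each bar, adult libraries in red and E16.5 libraries in blue. All 10 replication genes are above 0 in each E16.5 library, and the mitosis bars show 2 or 3 genes in the adult and 9 to 12 at E16.5, while those of the CDK inhibitors and Rb family stand at 4 or 5 of 6 throughout.

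Cdk2 and Ccnd1, both tested through their E16.5 values alone, were called lower in the adult, while Ccnd2 was the most abundant gene of the set at both ages. Of the 9, 7 were tested and 2 called, where 8.83% of all genes tested were called lower. The summed level was 313, 284 and 262 FPKM in the adult and 292, 272 and 267 FPKM at E16.5, ranges that overlapped.

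Cdk2, the kinase of the G1 to S transition (chr10:128697939-128705031, minus strand), was at 0.734, 1.57 and 0 FPKM in the adult and 15.6, 9.15 and 15.3 FPKM at E16.5. All adult values lay far below the E16.5 range, and it fell by 3.09 on the log2 scale (SE 0.67, limma adjusted p = 0.0318, called under 6 of 14 alternatives). Cdk4, a partner of the D-type cyclins, was at 16.7, 17.4 and 0 FPKM in the adult and 73.4, 47.5 and 69.1 FPKM at E16.5. The ages did not overlap, but the 0 in adult replicate 3, where 362 reads would correspond to the E16.5 mean, widened the spread, and the change was -3.20 (SE 1.08, limma adjusted p = 0.0958). Without that library, picked by its Cdk4 value, it was -1.81 with a limma adjusted p of 0.0169. Without any other 1 library the limma adjusted p was 0.0705 to 0.258. Tspan31 overlaps 19.7% of the exonic bases of Cdk4 on the other strand. Cdk6, the other partner, was at 0 in all adult libraries and at 1.51, 7.52 and 6.28 FPKM at E16.5. It changed by -2.43, with a limma adjusted p of 0.0584.

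The 3 D-type cyclins, which share these kinases, differed in their values. Ccnd1 (chr7:144929931-144939925, minus strand) was at 0, 2.45 and 0 FPKM in the adult and 13.6, 17.2 and 8.11 FPKM at E16.5. It fell by 3.15 on the log2 scale (SE 0.76, limma adjusted p = 0.0410, called under 4 of 14 alternatives), and 23.4% of its exonic bases overlap LTO1 on the other strand. Ccnd2 (chr6:127125162-127152193, minus strand) was at 225, 200.4 and 233 FPKM in the adult and 102, 138 and 110.4 FPKM at E16.5, that is 219 ± 17.0 and 117 ± 18.5 FPKM (SD, n = 3 each). Every adult value was above every E16.5 value and the means differed 1.88-fold, yet the adjusted p just missed the threshold (log2 change 0.91, 95% interval 0.34 to 1.49, limma adjusted p = 0.0545). The direction held under all 15 alternatives and 4 of them passed the threshold, but with every library scaled to the same FPKM sum the change was 0.09. Ccnd3 was at 70.9, 52.7 and 28.7 FPKM in the adult and 79.2, 46.4 and 54.4 FPKM at E16.5, overlapping ranges with a change of -0.29 (95% interval -1.27 to 0.69, limma adjusted p = 0.658), and the sign turned under median-ratio and quantile scaling.

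As a share of the D-type cyclin FPKM, which a common factor per library does not alter, Ccnd2 made up 76.0, 78.4 and 89.1% in the adult and 52.4, 68.4 and 63.9% at E16.5, without overlap. Ccnd1 made up 0, 0.958 and 0% in the adult and 6.96, 8.56 and 4.69% at E16.5, also without overlap. Ccnd2 alone gave 44.3, 45.4 and 54.7% of the FPKM of all 41 genes in the adult and 19.7, 25.1 and 19.2% at E16.5. With 3 against 3 an exact permutation test could not go below p = 0.1, and these shares were given no test.

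The remaining G1 genes were low. E2f1, the factor that turns on S phase genes, was at 0, 9.32 and 0 FPKM in the adult and 6.52, 6.77 and 0.870 FPKM at E16.5. Its highest value was in adult replicate 2, the deepest of the adult libraries, and the change was -1.13 (SE 1.11, limma adjusted p = 0.501). Ccne1, which encodes cyclin E1, was at 0 in the adult and 0, 0.180 and 2.90 FPKM at E16.5, and Ccne2 at 0 throughout.

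**Figure D5:**
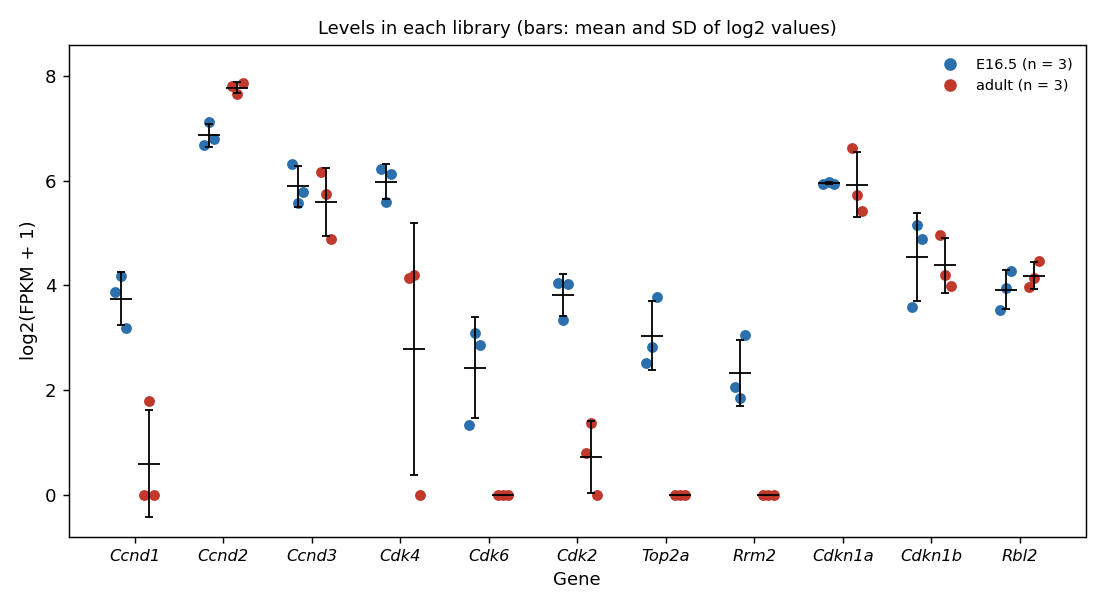
Values of 11 genes in each library as log2(FPKM + 1), E16.5 in blue and adult in red, with the mean and SD of the log2 values (n = 3 each). Ccnd2 is the highest at both ages, with every adult point above every E16.5 point, Cdk2, Top2a and Rrm2 lie lower in the adult without overlap, and the points of Ccnd3, Cdkn1a, Cdkn1b and Rbl2 overlap between ages.

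Of the 6 genes that hold cells out of the cycle, 5 were tested and 0 were called in either direction. Of all genes tested, 8.83% were called lower in the adult and 2.12% higher. In none of the 6 were the ages separate, while adult values lay all below in 31% of all genes tested and all above in 7.39%. With 5 genes tested, these counts cannot show that the group was unchanged. The summed level was 143, 91.3 and 88.1 FPKM in the adult and 100.3, 128 and 119 FPKM at E16.5. Cdkn1a (p21) was at 97.7, 52.3 and 41.7 FPKM in the adult and 60.5, 61.8 and 60.4 FPKM at E16.5. The E16.5 values differed by little (60.9 ± 0.82 FPKM, SD, n = 3) and sat inside the wide adult range (63.9 ± 29.7 FPKM), with a log2 change of -0.03 and a 95% interval from -0.90 to 0.85 (limma adjusted p = 0.967). Cdkn1b (p27) was at 30.4, 17.2 and 14.8 FPKM in the adult and 11, 34.5 and 28.6 FPKM at E16.5 (log2 change -0.16, 95% interval -1.44 to 1.11, limma adjusted p = 0.858). The signs of both turned under median-ratio and quantile scaling.

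The Rb family, which binds E2F factors, was read at both ages. Rbl2 (p130), the family member known from quiescent cells, was at 14.6, 16.5 and 21.1 FPKM in the adult and 10.5, 14.5 and 18.4 FPKM at E16.5. These ranges overlapped, and the change of 0.27 (95% interval -0.76 to 1.30, limma adjusted p = 0.701) turned to -0.52 when libraries were scaled to the same FPKM sum. Rb1 was at 0.577, 4.66 and 0 FPKM in the adult and 10.7, 11.4 and 4.26 FPKM at E16.5, so that adult replicate 2 reached the E16.5 range. The change was -2.14 (SE 0.85, limma adjusted p = 0.137). Without that library, picked by its Rb1 value, it was -2.86 with a limma adjusted p of 0.0434. Without any other 1 library the limma adjusted p was 0.199 to 0.3275. Rbl1 (p107) was at 0, 0.569 and 10.5 FPKM in the adult and 7.57, 5.39 and 7.11 FPKM at E16.5. Its highest value was in adult replicate 3. Without that library, picked by its Rbl1 value, the change of -1.54 (limma adjusted p = 0.316) became -2.61 (limma adjusted p = 0.0410). Without any other 1 library the limma adjusted p was 0.451 to 0.561. Of the exonic bases, 21% in Rbl2 and 14.9% in Rb1 overlap genes on the other strand.

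Ordered by level within an age, Ccnd2 stood alone at the top. Its range did not overlap that of the next gene, Cdkn1a in the adult (63.9 ± 29.7 FPKM) and Cdk4 at E16.5 (63.3 ± 13.8 FPKM, SD, n = 3). Below it the adult order ran Cdkn1a, Ccnd3 (50.7 ± 21.2 FPKM), Cdkn1b (20.8 ± 8.36) and Rbl2 (17.4 ± 3.32), and the E16.5 order Cdk4, Cdkn1a, Ccnd3 (60.0 ± 17.1 FPKM), Pcna (35.6 ± 11.6), Cdkn1b (24.7 ± 12.2) and Mcm4 (20.6 ± 7.92). No pair of neighbours below Ccnd2 among these was separate.

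Lists of other genes of the same pathways were read in the same way. Without E16.5 replicate 1, 2 or 3, where 57, 43 and 112 of all genes were called, 0 genes of these lists were called in either direction, and without adult replicate 1 the number was 6 lower and 0 higher. The changes themselves moved less, Rpa3 lying between -5.06 and -4.57, Gins2 between -3.99 and -3.31 and E2f5 between -4.56 and -4.04 with any 1 library left out. Rpa3 and Gins2 were at 0 in every adult library, so leaving out an adult library could not move their changes. The counts below stand against 8.83% lower and 2.12% higher among all genes tested, and against 19.9% at 0 in all adult libraries among genes above 0 at E16.5. Most genes called lower in these lists passed the filter through their E16.5 values alone, so they could only be called lower. Rpa3, Gins2, Ncaph, Smc4, Skp2 and E2f5 are among them, and Nasp and Mad1l1 are not. Of 56 other replication genes 43 were tested, 5 were lower in the adult and 0 higher, and 15 were at 0 in all adult libraries, 2 of them at E16.5 as well. Rpa3, of the single-strand binding complex RPA, was at 0 in the adult and 17.6, 35.6 and 29.3 FPKM at E16.5 (log2 change -4.78, limma adjusted p = 0.00706). Gins2, of the replicative helicase, was at 0 and at 6.97, 11.4 and 19.4 FPKM (limma adjusted p = 0.0183), and Nasp, a histone chaperone, at 0.133, 10.9 and 0 FPKM in the adult and 67.6, 58.0 and 40.5 FPKM at E16.5 (limma adjusted p = 0.0310). All 3 were lower in the adult without overlap. Mcm10, a partner of the MCM complex in replication, was at 2.02, 0.987 and 0 FPKM in the adult and at 2.47 FPKM in E16.5 replicate 3 alone, below the filter.

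Of 74 other mitotic genes 30 were tested, 6 were lower in the adult and 0 higher, and 46 were at 0 in all adult libraries, 9 of them at E16.5 as well. The 6 include H2afz (limma adjusted p = 0.0386), whose adult zeros are described above as listings and not as absence. The condensin subunits Ncaph (0 in the adult, 19.1, 6.59 and 14.6 FPKM at E16.5, limma adjusted p = 0.0180) and Smc4 (0.724, 0.0291 and 0.757 FPKM, then 21.9, 9.23 and 19.9 FPKM, limma adjusted p = 0.0221) fell, as did the checkpoint gene Mad1l1 (0, 2.64 and 1.34 FPKM, then 19.8, 19.5 and 30.0 FPKM, limma adjusted p = 0.0242). In each the ages were separate. Foxm1, a transcription factor of the mitotic genes, was at 0 in the adult and 1.72, 1.85 and 0.147 FPKM at E16.5 and was not tested. Among 19 other G1 regulators measured, 14 were tested, and Skp2, which marks p27 for destruction, was the 1 lower in the adult (0, then 11.2, 3.49 and 4.52 FPKM, limma adjusted p = 0.0371), with 0 higher.

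Of 32 other genes of arrest and quiescence 27 were tested, 1 was lower in the adult and 2 were higher. E2f5, a repressor E2F that acts with the Rb family, was at 0.165, 0.146 and 0.211 FPKM in the adult and 18.4, 38.5 and 18.3 FPKM at E16.5. It was above 0 in every library and fell by 4.39 on the log2 scale (SE 0.63, limma adjusted p = 0.00945, called under 12 of 15 alternatives). Klf9, a Krüppel-like factor, was at 49.6, 39.1 and 37.5 FPKM in the adult and 4.53, 9.80 and 7.24 FPKM at E16.5, and rose by 2.44 (SE 0.44, limma adjusted p = 0.0202, called under 10 of 15 alternatives). Trp53, which encodes p53, an activator of Cdkn1a, was at 198, 71.3 and 485 FPKM in the adult and 29.9, 25.6 and 14.4 FPKM at E16.5 (log2 change 3.04, limma adjusted p = 0.0329, called under 8 of 15 alternatives). The adult values of Trp53 were spread widely but lay above all at E16.5, while those of Cdkn1a overlapped. Cdkn1c (p57), an inhibitor of the same family as p21 and p27, was at 262, 248 and 237 FPKM in the adult and 414, 420 and 403 FPKM at E16.5 (log2 change -0.73, limma adjusted p = 0.0641). It exceeded Cdkn1a and Cdkn1b in every library. E2f4, another repressor E2F, was at 37.8, 7.12 and 0.182 FPKM in the adult and 6.10, 13.8 and 15.3 FPKM at E16.5, without a direction that held under quantile scaling or without adult replicate 3.

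Multiciliated cells are known to use part of the cycle machinery while they make centrioles, and 10 of 11 genes listed for this were in the table. Of these 5 were tested and 0 were called in either direction. The number was also 0 in either at an unadjusted p under 0.05, where 25.9% of all genes tested were lower and 5.34% higher. With 5 genes tested, these counts cannot show that the list was unchanged. Gmnc, the regulator that opens this program, was at 3.36, 5.38 and 0 FPKM in the adult and 8.80, 13.4 and 9.26 FPKM at E16.5 (log2 change -1.90, limma adjusted p = 0.165). Ccno, a cyclin of these cells, was at 0 in the adult and 3.86, 0 and 0.689 FPKM at E16.5.

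Scaling between libraries moved all genes together. The median change of all genes tested was -0.86 as deposited, -0.58 with median-ratio scaling, -1.57 with a common FPKM sum and -0.15 with quantile normalisation, and the calls lower and higher in the adult numbered 1024 and 246, 660 and 348, 3099 and 114, and 449 and 466. Taken relative to that median, Top2a lay at -2.18, -2.23, -2.27 and -2.22 in the same order, Cdk2 between -2.31 and -2.23, and Ccnd1 between -2.62 and -2.30. Ccnd2 lay at 1.77, 1.83, 1.65 and 1.54 above it. Cdkn1a lay between 0.55 and 0.89, Cdkn1b between 0.52 and 0.74 and Rbl2 between 1.01 and 1.16 above it. Median-ratio scaling and a common sum multiply a library by 1 factor, so that such differences from the median can move little by construction. Mcm2 lay at 0.20, 0.23 and 0.11 above the median and, with quantile normalisation, at -0.06. Mcm4 and Tyms lay within 0.17 of the median throughout.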

How the data were processed

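Ribosome-bound mRNA of 3 adult and 3 E16.5 ChP samples had been sequenced as single reads of 50 bases. The authors aligned the reads to mm10 with STAR 2.4.0, per the submitters' notes, and the deposited FPKM values were made with Cuffquant of Cufflinks. The methods name an mm10 gene annotation, without its release, for read counting, while the annotation given to Cuffquant and the use of strand are not given in the sources used here. FPKM were analysed as deposited. Genes averaging more than 1 FPKM across all samples were tested on log2(FPKM + 1), a scale that understates changes of low genes, with limma 3.58.1 in R 4.3.3 (intensity trend, no covariates, Benjamini-Hochberg adjustment over 11601 genes, threshold 0.05), after a check on simulated data. Intervals are limma's. The count test of the study's methods could not be applied to FPKM. The deposited table holds no counts, so depth was estimated from the spacing of low values, and read numbers are approximate.

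Gene positions and overlaps came from GENCODE M21 and promoters from RefSeq. The 41 genes and all lists were chosen with earlier results of these data known. All 41 were named. Of each further list, the called genes with the largest changes, up to 3 per direction, and Mcm10, Foxm1, Cdkn1c, E2f4, E2f5, Ccno and Gmnc were named. Alternatives were 2 other pseudocounts, 2 filters, 3 scalings, no trend, a replicate block and leaving out each library.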

Additional observations from a re-analysis of the deposited data

How the results depend on the processing

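Of the 27 genes tested, 22 kept their direction under every alternative run, 5 turned in at least 1, 0 were called under every alternative run for them (11 to 15 each) and 13 under none. Of the 41 genes, 4 were called lower in the adult. The number was 2 with median-ratio scaling (5.69% of all genes tested), 12 with a common FPKM sum (26.7%), 0 with quantile normalisation (3.87%), and 0 to 6 with 1 library left out. It was 0 among genes above 0 in every library (6.87%), a filter that removes each of the 4 by its adult zeros. The number higher in the adult was 0 (2.12% of all genes tested). It was 1, Ccnd2 each time, with a pseudocount of 0.1 (1.86%) or 0.01 (1.84%), with median-ratio scaling (3%) or with quantile normalisation (4.02%). The further lists, with 119 genes tested in the main fit, gave 13 genes lower. The number was 2 among genes above 0 in every library, 37 with a common sum, 5 with quantile normalisation and 0 to 19 with 1 library left out. These lists gave 2 genes higher, and 1 with a pseudocount of 0.01 (1.84% of all genes tested), with no filter (1.43%) or with no trend (1.36%). The number higher was 4 with quantile normalisation (4.02%) and 0 to 2 with 1 library left out. Over all genes 1270 were called, 722 among genes above 0 in every library, 3213 with a common sum and 43 to 1923 with 1 library left out. The smaller number among genes above 0 in every library goes with fewer genes tested; the other causes were not tested. The labels paired no adult with an E16.5 sample. Deviations of same-numbered samples from the mean of their age correlated at 0.00089, 0.044 and 0.015. Such deviations cancel within an age, so low values cannot show that the samples were unpaired. With the replicate block, 0 of the 41 genes, 3 and 1 of the further lists, and 564 of all genes were called.

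The following changes reversed in sign. Mcm7 was at -0.68 with a common sum and at -0.33 to 0.42 with 1 library left out. Ccnd3 was at 0.04 with median-ratio scaling, 0.11 with quantile normalisation and -0.58 to 0.063 with 1 library left out. Cdkn1a was at 0.31, 0.40 and -0.38 to 0.23 in the same order, and Cdkn1b at 0.17, 0.37 and -0.64 to 0.14. Rbl2 was at -0.52 with a common sum. E2f4 was at 0.56 with quantile normalisation and -1.95 to 0.57 with 1 library left out. Every E16.5 library was deeper than every adult library, so depth and age cannot be told apart, and zeros limit what the adult libraries show for genes of low level.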
